A study of Bos taurus with 3 samples.

Results

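The subject is the set of genes for the glutamate, GABA, glycine and purine receptors of the bovine retina. Members were found by symbol alone in the table of gene expression values: the AMPA (GRIA), kainate (GRIK), delta (GRID), NMDA (GRIN) and metabotropic (GRM) glutamate receptor genes, the GABA-A (GABR) and GABA-B (GABBR) receptor genes, the glycine receptor genes (GLRA and GLRB) and the P2X genes of ATP-gated channels. The rule found 41 of 13574 listed genes, in 8 receptor classes, and no delta receptor gene. GRINA, whose symbol resembles those of the NMDA receptor genes, is not a receptor subunit and was left out.

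The 3 libraries, called libraries 1, 2 and 3 here, form 1 group. Each was made from poly(A) RNA of dissected retinas of cattle of mixed strain, with pooled total RNA going into each library, and the tissue was taken between 7 and 10 in the morning. The study's design text calls them biological replicates. The labels give no treatment, genotype or age, and do not say which animals went into which pool, so SDs measure the spread between these libraries. Values are FPKM, that is fragments scaled to gene length and to the reads of the library. Genes of different length can be set side by side in FPKM only as far as the listed gene lengths are right.

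The implied denominators were 36656987, 39011741 and 49102476 reads in libraries 1, 2 and 3. For a gene of 1 kb, 3 reads correspond to 0.0818, 0.0769 and 0.0611 FPKM in the respective libraries, and floors and intervals cover counting error only. Library 2 stood apart in XIST, a transcript made from inactive X chromosomes, with 3 reads against 3987 in library 1 and 3628 in library 3. Among markers of retinal cells, 5 of 5 rod, 6 of 6 listed bipolar and 5 of 5 listed amacrine cell genes averaged 10 FPKM or more. That level was reached by 3 of 5 listed horizontal cell genes, 5 of 7 listed ganglion cell genes and 0 of 6 microglia genes. Over all listed genes the share was 38.4%. Of other tissues, 6 pigment epithelium genes had summed levels of 16.4, 9.96 and 9.06 FPKM and 5 lens genes had 32.3, 43.1 and 18.4 FPKM, nearly all of it from CRYBB1 and CRYBB3. The 4 blood genes summed to 0.340, 0.292 and 0.325 FPKM, with HBA and HBB listed at 0.

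Receptors of these families turn released transmitter into current or second messengers. Photoreceptors release glutamate in the dark. ON bipolar cells sense it through a metabotropic receptor, the product of GRM6, while OFF bipolar cells and horizontal cells use AMPA and kainate receptors, which are tetrameric cation channels. Amacrine cells, and in many species horizontal cells, release GABA or glycine onto pentameric chloride channels, and bipolar cell terminals are known for GABA receptors built from rho subunits. P2X receptors are trimeric cation channels opened by ATP. In each family, the subunits that a cell makes set the kinetics, the drug sensitivity and the ion selectivity of the receptor. Bulk RNA mixes all cells, so that fewer cells of a type and less RNA per cell cannot be told apart, and a subunit's level says nothing of the cell that holds it.

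Inhibitory channels took the largest part of the receptor message. Summed over its 16 genes, the GABA-A class had 119, 110 and 136 FPKM in libraries 1, 2 and 3, or 44.2% ± 2.25 of the FPKM of all 41 receptor genes (SD, n = 3). Kainate receptors followed at 15.0% ± 1.30 and the single GABA-B gene at 11.9% ± 0.648. P2X receptors had a mean of 10.7%, with 8.68% in library 3 as the lowest value, glycine receptors 5.74% ± 0.231, metabotropic glutamate receptors 5.70% ± 0.787 and AMPA receptors 5.24% ± 0.466. The 3 listed NMDA receptor genes had 1.56% ± 0.259 (SD, n = 3 for each class with an SD). GABA-A and glycine receptor genes together had 133, 125 and 153 FPKM against 54.1, 58.6 and 66.7 FPKM for the ionotropic glutamate receptor genes, a ratio of 2.29 on average (log2 1.30, 1.09 and 1.20 by library). In reads not scaled to length, GABA-A genes still led with 33.4%, GABA-B came second with 28.3% and P2X receptors had 5.18%. These sums cover the listed genes only. GRIA1, GRIN1, GRIN2A, GRIN2D, GRIN3B, GRID1, GRM4, GRM5, GRM6, GABRR1, GABRG3, GABRE, GABBR2, GLRA3, P2RX3, P2RX5 and P2RX6 were not analysed here, and the ranking of classes could differ with them.

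**Figure D1:**
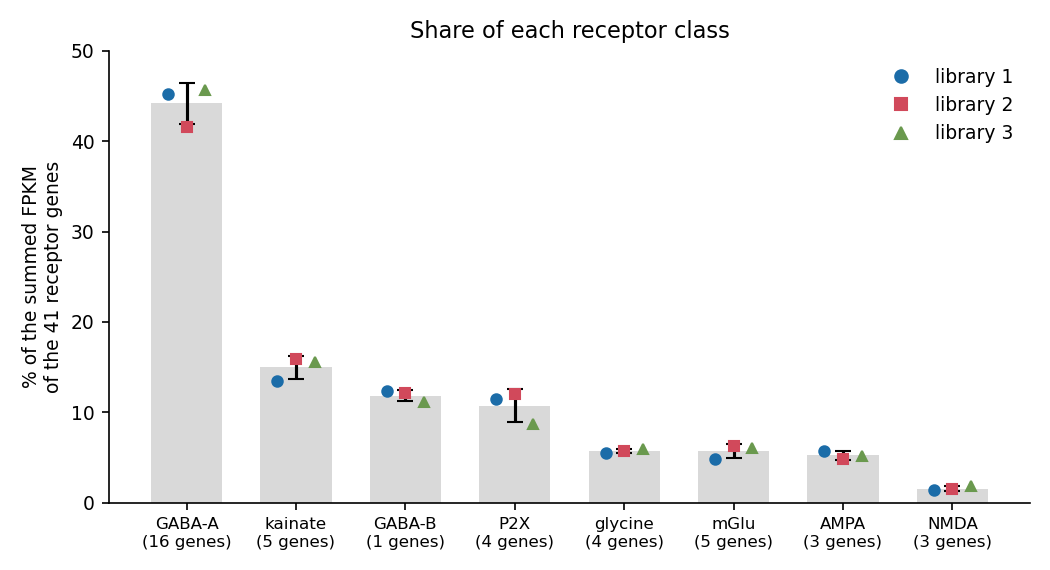
Share of each receptor class in the summed FPKM of the 41 receptor genes, in percent. Grey bars are means and error bars SDs over 3 libraries, which are drawn as points; GABA-A genes sit at 41.6% to 45.7% in every library, and NMDA genes at 1.36% to 1.85%.

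Single receptor genes were modest in level. Of the 41 members 30 had a mean of at least 1 FPKM, beside 70.7% of all listed genes, 16 of 41 had at least 5 FPKM, beside 52.2%, and 10 of 41 had at least 10 FPKM, beside 38.4% of all genes. The median of the members' means was 3.03 FPKM, against 5.67 FPKM over all genes. GABBR1 ranked 2087 among the 13574 genes. The members below 1 FPKM were GRIK3, GRIN3A, GRIN2B, GRM2, GABRG1, GABRB1, GABRQ, GABRA6, GABRP, P2RX1 and P2RX7. GABRP was listed at 0 in each library, as were 7.86% of all genes, and its 3-read floors were 0.0266, 0.0250 and 0.0199 FPKM. Within classes, 19 of 33 neighbours in the order of mean FPKM had ranges over the 3 libraries that did not overlap.

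**Figure D2:**
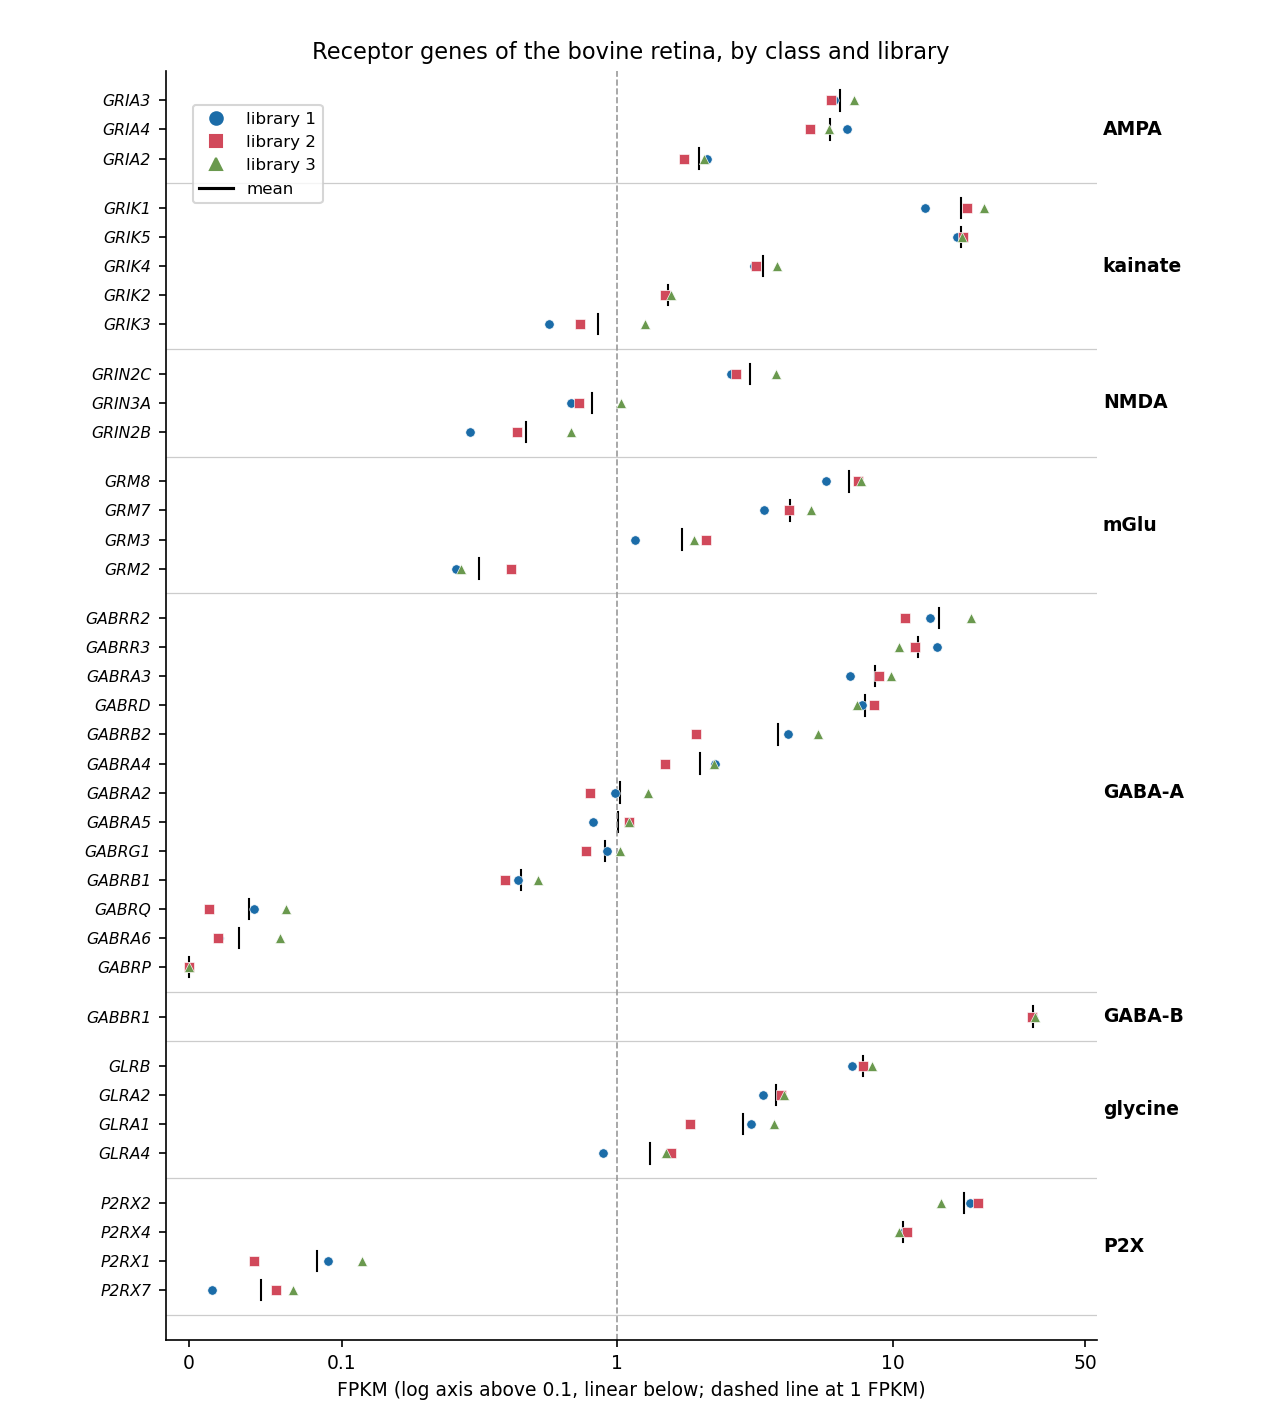
FPKM of the receptor genes described here, by class, with 1 point per library and a black tick at the mean; the axis is logarithmic above 0.1 FPKM and linear below, and the dashed line marks 1 FPKM. GABBR1, at 32.0 to 33.0 FPKM, is the highest gene shown, and points of GABRQ, GABRA6, P2RX1, P2RX7 and GABRP lie at a few reads or none.

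The AMPA class was shared by GRIA3 and GRIA4. AMPA receptors carry the fast excitatory current at most synapses. GRIA3 had 6.11, 5.98 and 7.23 FPKM and GRIA4 had 6.85, 5.03 and 5.89 FPKM in libraries 1, 2 and 3. The ranges overlapped, GRIA4 was the higher one in library 1 and GRIA3 in libraries 2 and 3 (log2 ratio 0.11 ± 0.22, SD, n = 3, exact two-sided sign-flip test p = 0.5). GRIA2, whose edited subunit makes the channel nearly impermeable to calcium, was lower than both in each library, at 2.12, 1.75 and 2.06 FPKM or 13.6% to 14.0% of the class. This low place depends on length: the gene model of GRIA2 has 13610 bases, that of GRIA4 has 2206 and that of GRIA3 has 5103. In reads, not scaled to length, GRIA2 had 1057, 929 and 1376 against 554, 433 and 638 for GRIA4 and 1143, 1191 and 1812 for GRIA3.

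Kainate receptors were dominated by GRIK1 and GRIK5. GRIK1 encodes GluK1, a subunit known from OFF cone bipolar cells of other mammals, and GRIK5 encodes GluK5, which needs a partner such as GluK1 to form a channel. GRIK1 had 13.1, 18.7 and 21.5 FPKM and GRIK5 had 17.1, 17.9 and 17.9 FPKM in libraries 1, 2 and 3. Their means were nearly equal, at 17.7 FPKM ± 4.30 and 17.6 FPKM ± 0.466 (SD, n = 3), and their order differed between libraries. The ratio of GRIK1 to GRIK5 was 0.763 in library 1, with a 95% exact counting interval of 0.712 to 0.819, and 1.20 in library 3, with an interval of 1.14 to 1.27 (log2 ratio -0.02 ± 0.32 over libraries, exact sign-flip test p = 1). Without library 1 the log2 ratio was 0.15.

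The other kainate genes were lower and in a fixed order. GRIK4, the relative of GRIK5, had 3.15, 3.18 and 3.81 FPKM and was 4.26-fold below GRIK5 on the scale of FPKM + 1. GRIK2 had 1.53, 1.49 and 1.57 FPKM and GRIK3 had 0.563, 0.734 and 1.26 FPKM. Neither range reached that of its neighbour above. Among the subunits that can form channels alone, GRIK1 made up 88.0% ± 1.62, GRIK2 7.89% ± 1.94 and GRIK3 4.14% ± 0.911 of the summed FPKM (SD, n = 3). As a class, kainate genes were 2.86-fold above the 3 listed AMPA genes (log2 1.52 ± 0.25, SD, n = 3), with GRIA1 not analysed here. In reads not scaled to length the gap was smaller, with 13.0% of all receptor reads for kainate and 7.74% for AMPA genes.

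NMDA receptors need GluN1, the product of GRIN1, which was not analysed here, and a second kind of subunit that sets their properties. Of the 3 listed genes GRIN2C was the highest in each library, at 2.60, 2.71 and 3.78 FPKM or 70.6% ± 2.06 of the class (SD, n = 3). GluN2C gives receptors with a weak magnesium block. GRIN3A, whose subunit lowers calcium permeability, had 0.678, 0.727 and 1.03 FPKM, and GRIN2B had 0.291, 0.434 and 0.680 FPKM. GRIN2C stood 2.21-fold above GRIN3A on the scale of FPKM + 1 (log2 1.15 ± 0.08, SD, n = 3). Without the added 1 the ratio was 3.84, 3.73 and 3.66 in libraries 1, 2 and 3, and its 95% counting interval lay above 1 in each library. GRIN3A and GRIN2B overlapped, though GRIN3A was the higher one within each library. All 3 genes were lowest in library 1 and highest in library 3, and GRIN2B rested on 48, 76 and 150 reads.

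Among metabotropic glutamate receptors GRM8 was above GRM7, its relative in group III, in each library. These receptors couple to Gi proteins and in most neurons sit on transmitter-releasing terminals. GRM8 had 5.71, 7.46 and 7.66 FPKM and GRM7 had 3.42, 4.21 and 5.05 FPKM in libraries 1, 2 and 3, and the ranges did not overlap. The ratio was 1.52-fold on the scale of FPKM + 1 (log2 0.61 ± 0.09, SD, n = 3). The group II receptors GRM3 and GRM2 had 1.16, 2.11 and 1.89 FPKM and 0.260, 0.411 and 0.272 FPKM, so that GRM3 made up 84.2% ± 2.95 of their sum (SD, n = 3). GRM4, GRM5 and GRM6 were not analysed here.

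**Figure D3:**
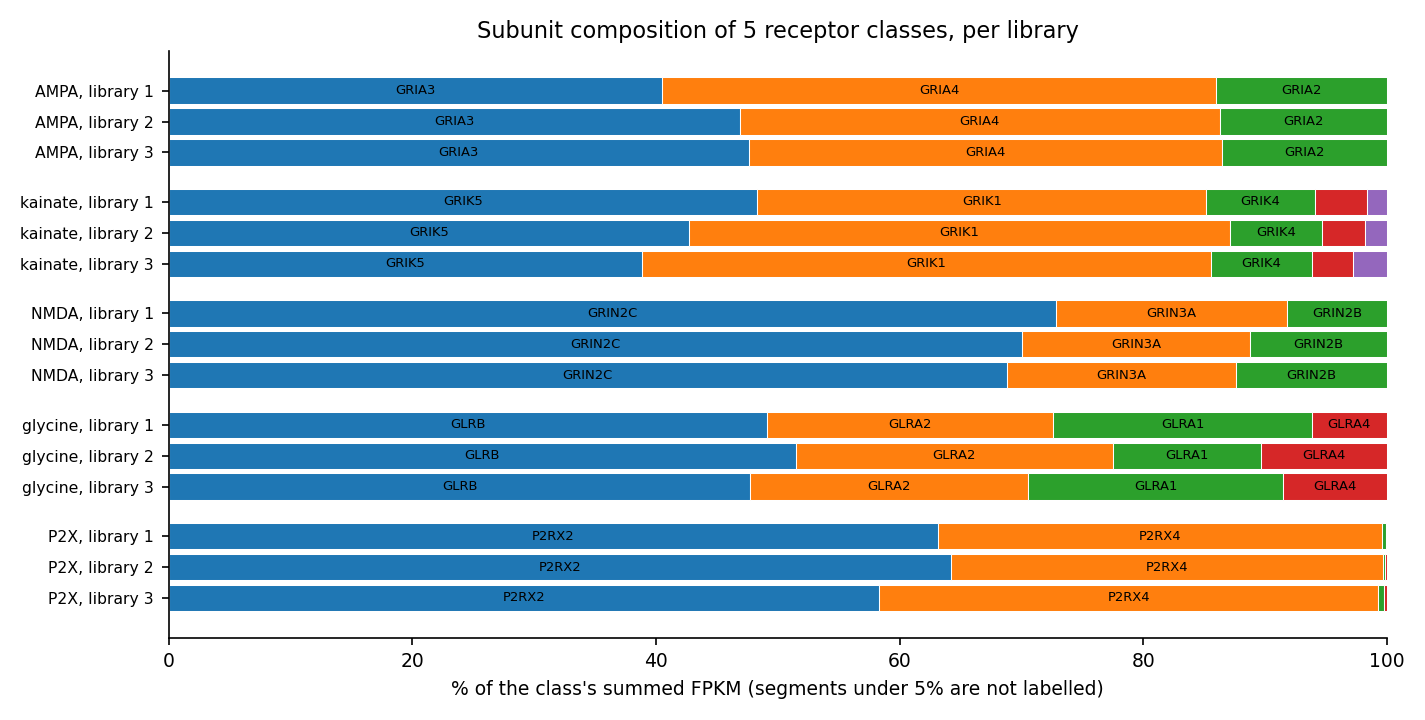
Composition of the AMPA, kainate, NMDA, glycine and P2X classes, as percent of the class's summed FPKM, with 1 bar per library and 1 segment per gene; segments under 5% carry no name. GRIN2C takes 68.8% to 72.8% of the NMDA class and GLRB 47.7% to 51.5% of the glycine class in every library, while the order of GRIK1 and GRIK5 differs between libraries.

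Among the alpha subunits of the GABA-A receptor described here, GABRA3 was the highest, at 7.03, 8.94 and 9.87 FPKM in libraries 1, 2 and 3. GABRA4 had 2.27, 1.49 and 2.24 FPKM, a range well below that of GABRA3. GABRA2 and GABRA5, with means of 1.03 and 1.01 FPKM, overlapped. GABRA6, known from cerebellar granule cells, had 1, 1 and 4 reads and was near the floor of detection.

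Beta subunits line the GABA binding site together with alpha. GABRB2 had 4.16, 1.94 and 5.38 FPKM in libraries 1, 2 and 3, on 238, 118 and 412 reads, and was lowest in library 2. GABRB1 was lower, with a mean of 0.449 FPKM ± 0.0634 (SD, n = 3), and its range did not reach that of GABRB2. Of the gamma genes, GABRG1 had 0.922, 0.770 and 1.03 FPKM. GABRD, whose subunit takes the place of gamma in receptors outside the synapse, had 7.74, 8.54 and 7.45 FPKM.

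The rho subunits, which form the slow GABA-gated channels long called GABA-C, were well above the median member. GABRR2 had 13.7, 11.1 and 19.3 FPKM and GABRR3 had 14.5, 12.1 and 10.5 FPKM in libraries 1, 2 and 3. GABRR3 was slightly above GABRR2 in libraries 1 and 2, with 95% counting intervals of the ratio of GABRR2 to GABRR3 that held 1, and GABRR2 was 1.83 times GABRR3 in library 3 (interval 1.68 to 2.00; log2 ratio on FPKM + 1 0.21 ± 0.52 over libraries, SD, n = 3, exact sign-flip test p = 1). Without library 3 the log2 ratio was -0.09. This order depends on length: the gene model of GABRR2 has 2027 bases and that of GABRR3 has 1407. In reads, not scaled to length, GABRR2 had 1020, 878 and 1920 against 747, 663 and 727 for GABRR3. The FPKM of GABRR2 and GABRR3 summed to 28.2, 23.2 and 29.8 in libraries 1, 2 and 3. The sum leaves out GABRR1, not analysed here, which is the coding neighbour of GABRR2 in the ARS-UCD2.0 cattle assembly. The theta subunit gene GABRQ had 3, 1 and 6 reads.

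The GABA-B receptor, a G protein-coupled receptor that needs a pair of subunits, was represented by GABBR1. It had 32.3, 32.0 and 33.0 FPKM on 9739, 10249 and 13300 reads, the smallest SD of log2(FPKM + 1) among the 30 members of at least 1 FPKM, at 0.02.

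Glycine receptors combine alpha subunits, which bind glycine, with the beta subunit, which binds the scaffold gephyrin. GLRB had 7.10, 7.79 and 8.45 FPKM in libraries 1, 2 and 3 and the summed alpha genes had 7.35, 7.34 and 9.25 FPKM. Their ratio was 0.979 (log2 -0.03 ± 0.11, SD, n = 3) and did not keep 1 direction. This near equality depends on length: the gene model of GLRB has 3575 bases, and those of GLRA2, GLRA1 and GLRA4 have 1842, 1744 and 2083. Of the alpha genes GLRA2 had 3.39, 3.94 and 4.04 FPKM and GLRA1, the form of adult spinal cord, had 3.07, 1.84 and 3.71 FPKM. GLRA2 was higher in each library, but only in library 2 did the 95% counting interval of the ratio, 1.73 to 2.67, lie above 1. GLRA4 was lowest at 0.891, 1.56 and 1.51 FPKM. GABA-A genes summed to 7.70-fold the glycine receptor genes (log2 2.94 ± 0.09, SD, n = 3).

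P2X receptors came down to 2 genes. P2RX2, a slowly desensitising channel of neurons, had 19.0, 20.4 and 15.0 FPKM and P2RX4, a calcium-permeable channel of neurons, endothelium and microglia, had 11.0, 11.2 and 10.5 FPKM in libraries 1, 2 and 3. P2RX2 took 61.9% ± 3.14 and P2RX4 37.6% ± 2.91 of the class (SD, n = 3), and the ranges did not overlap (1.59-fold on the scale of FPKM + 1, log2 0.67 ± 0.18). P2RX1, a receptor of smooth muscle and platelets, had 4, 2 and 7 reads. P2RX7, known from macrophages and microglia, had 1, 4 and 6 reads. The 6 microglia markers had a summed level of 11.2, 13.1 and 9.33 FPKM.

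Leads between neighbours were summarised over 15 different pairs, 7 of whole classes and 8 more of subtypes, where the leader was the gene with the higher mean. The leader was higher in all 3 libraries in 12 of 15 pairs, and in 11 of 15 the 95% counting interval of the ratio also lay above 1 in every library. GRIK1 with GRIK5, GRIA3 with GRIA4 and GABRR2 with GABRR3 were the pairs whose order in FPKM differed between libraries. For each pair with a constant order the exact sign-flip p was 0.25, the smallest that 3 libraries allow, so no pair could pass a threshold of 0.05. Leaders were picked by the mean over these same libraries, which favours a lead in each of them. The counts therefore describe these libraries and are no test of the leads, and no share over other gene pairs is given here.

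Many of these genes lie side by side in the genome, which gave a further view of subunit choice. By name, all 41 members were found in the ARS-UCD2.0 annotation, and 9 pairs of members, covering 16 genes, are next to each other among coding genes. Positions are not given, because the authors' build is not known here. GABRB2 and its neighbour GABRA6 had means of 3.83 and 0.0329 FPKM, and GABRA3 and its neighbour GABRQ 8.61 and 0.0397 FPKM, so that in both pairs a gene above 1 FPKM stands beside one near the floor. GABRG1 and GABRA2, and after COX7B2 also GABRA4 and GABRB1, were all low, at 0.907, 1.03, 2.00 and 0.449 FPKM. P2RX4 and P2RX7 are neighbours at 10.9 and 0.0470 FPKM, and GRIA2 and GLRB at 1.98 and 7.78 FPKM. Of the 41 members 4 overlap another listed gene in that annotation, and those partners were at 0 or, for PPP3R2 beside GRIN3A, at 0.0226 FPKM or less.

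Receptor levels were about as steady between libraries as those of other genes. The median SD of log2(FPKM + 1) was 0.20 over the 30 members of at least 1 FPKM and 0.19 over all 9599 such genes. Only GABRB2 differed at least 2-fold between any 2 libraries on the scale of FPKM + 1, which is 1 of 30 members beside 3.27% of all such genes, and 25 of 30 members differed less than 1.5-fold, beside 80.1% of those genes. Without library 2, or without library 3, no member reached 2-fold. The SD was above the median of all such genes in 17 of 30 members, beside 50% of those genes. In 22 of 30 members the 95% counting intervals of the highest and the lowest library did not overlap, beside 82.3% of all such genes. The other 8, whose libraries did not separate beyond counting error, were GABBR1, GABRA5, GABRD, GLRA2, GRIK2, GRIK4, GRIK5 and P2RX4.

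One set of members was low in library 2. GABRB2 had 1.94 FPKM there against 4.16 and 5.38 FPKM in libraries 1 and 3, a 2.17-fold gap between highest and lowest on the scale of FPKM + 1. GLRA1 had 1.84 against 3.07 and 3.71 FPKM (1.66-fold). GABRR2, at 11.1 against 13.7 and 19.3 FPKM, followed the same order, with a 1.68-fold gap. Of the 30 members 11 were lowest in library 2, beside 32.1% of all genes of at least 1 FPKM, so the count itself is near the background. With the trend of level with gene length removed, 7 of 30 were lowest there, beside 33.6%. Of the bipolar cell markers, PRKCA, a gene of rod bipolar cells, had 8.80 FPKM in library 2 against 18.3 and 20.3 FPKM. VSX1, CABP5 and OTX2 were highest in library 2, and ISL1, at 27.7, 27.6 and 30.0 FPKM, differed little. The summed 6 bipolar markers had 422, 481 and 471 FPKM, and the summed 5 amacrine markers 107, 105 and 119 FPKM in libraries 1, 2 and 3. The part of these cell types in the low values was not tested.

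A wider pattern ran between libraries 1 and 3. Of the 30 members 18 were highest in library 3, beside 25.7% of all genes of at least 1 FPKM, and 15 were lowest in library 1, beside 24.5%. GRIK1, GRIK4, GRIN2C, GRM7, GRM8, GABRA3, GLRB and GLRA2 were among those both lowest in library 1 and highest in library 3. Only 5 of 30 members were highest in library 1, beside 45.3% of all such genes, and 7 of 30 were highest in library 2, beside 29%. The median deviation from the gene's own mean on the log2 scale was -0.06, -0.02 and 0.12 for members and 0.06, -0.01 and -0.04 for all such genes in libraries 1, 2 and 3. Receptor genes are long, with a median model length of 2592.5 bases for these 30 against 2031 for all such genes, and the trend of all genes with length put long genes higher in library 3. With that length trend removed, 16 of 30 members were highest in library 3, beside 28.2% of all such genes, and 18 of 30 were lowest in library 1, beside 34.9%. Other scalings also moved the counts over all genes: the members highest in library 3 numbered 25 of 30, beside 44.0%, with equal sums and 22 of 30, beside 33.1%, with the median ratio. GABRR3, GABRD, P2RX2 and P2RX4 went the other way: they were the 4 of 30 members lowest in library 3, beside 43.3% of all such genes. Of the genes named for these orders, GRIK4, GLRA2, GABRD and P2RX4 had libraries that did not separate beyond counting error.

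**Figure D4:**
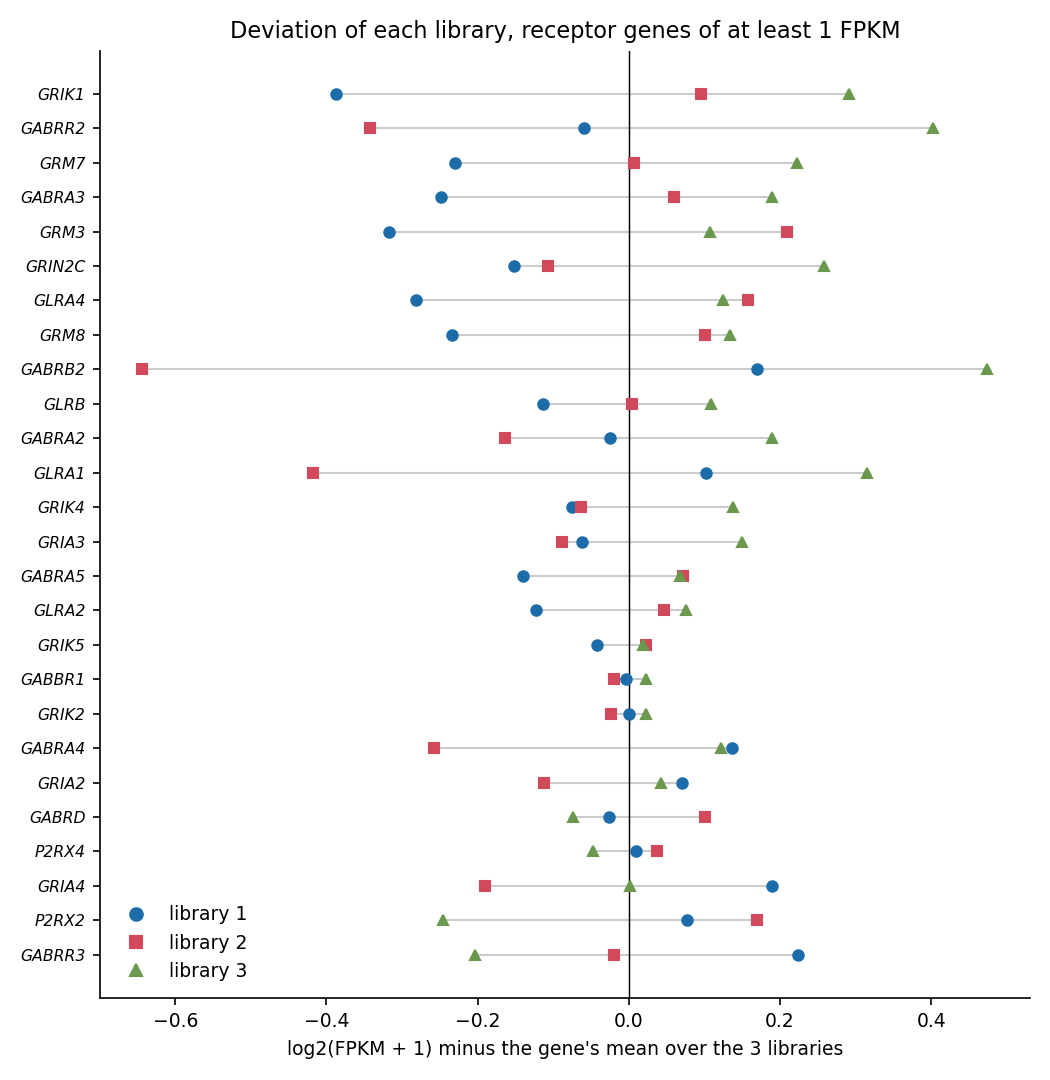
Difference of each library from the gene's mean over the 3 libraries, in log2(FPKM + 1), for the receptor genes of at least 1 FPKM described here, sorted by library 3 minus library 1. Library 3 is the rightmost point for most genes shown, and the lowest point is that of GABRB2 in library 2.

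Genes whose products assist these receptors were read from lists of auxiliary subunits, scaffolds and ligands. Of 71 such genes 46 were listed, and 40 of these had a mean of at least 1 FPKM, beside the 70.7% of all genes given above. Of 8 listed AMPA receptor partners 6 reached 1 FPKM, led by PORCN at 29.3 FPKM ± 4.05, PICK1, which binds GluA2, at 24.4 FPKM ± 3.12 and CACNG3, a TARP auxiliary subunit, at 20.9 FPKM ± 1.02 (SD, n = 3 for each). NETO1, an auxiliary subunit of kainate receptors, had 4.96 FPKM ± 0.447. Of the 4 ligands of delta receptors only CBLN2 reached 1 FPKM, at 27.1, 10.9 and 18.9 FPKM in libraries 1, 2 and 3, and CBLN3 and CBLN4 had means of 0.713 and 0.409 FPKM.

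All 9 listed scaffold genes of excitatory synapses and all 8 of GABA-A and glycine receptors reached 1 FPKM. DLG4, which encodes PSD-95, had 142, 87.1 and 132 FPKM in libraries 1, 2 and 3, DLGAP4 16.7 FPKM ± 1.66 and DLG3 8.80 FPKM ± 0.647 (SD, n = 3). GABARAPL1, GABARAPL2 and GABARAP, small proteins that carry GABA-A receptors and also serve autophagy, had 207 FPKM ± 17.3, 163 FPKM ± 32.2 and 128 FPKM ± 17.4. Of the partners of the metabotropic receptor of ON bipolar cells 9 of 9 listed genes reached 1 FPKM, led by RGS9BP at 227 FPKM ± 36.2, which photoreceptors also use, RGS11 at 192 FPKM ± 82.5 and GNAO1, the G protein of that cascade, at 133 FPKM ± 19.8. KCTD8, an auxiliary subunit of GABA-B receptors, had 7.18 FPKM ± 0.518. Around P2X receptors, NT5E, which makes adenosine from AMP, had 90.5 FPKM ± 10.6, the pannexin PANX2 45.8 FPKM ± 2.05 and the ectonucleotidase ENTPD2 5.99 FPKM ± 0.638 (SD, n = 3 for each).

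**Figure D5:**
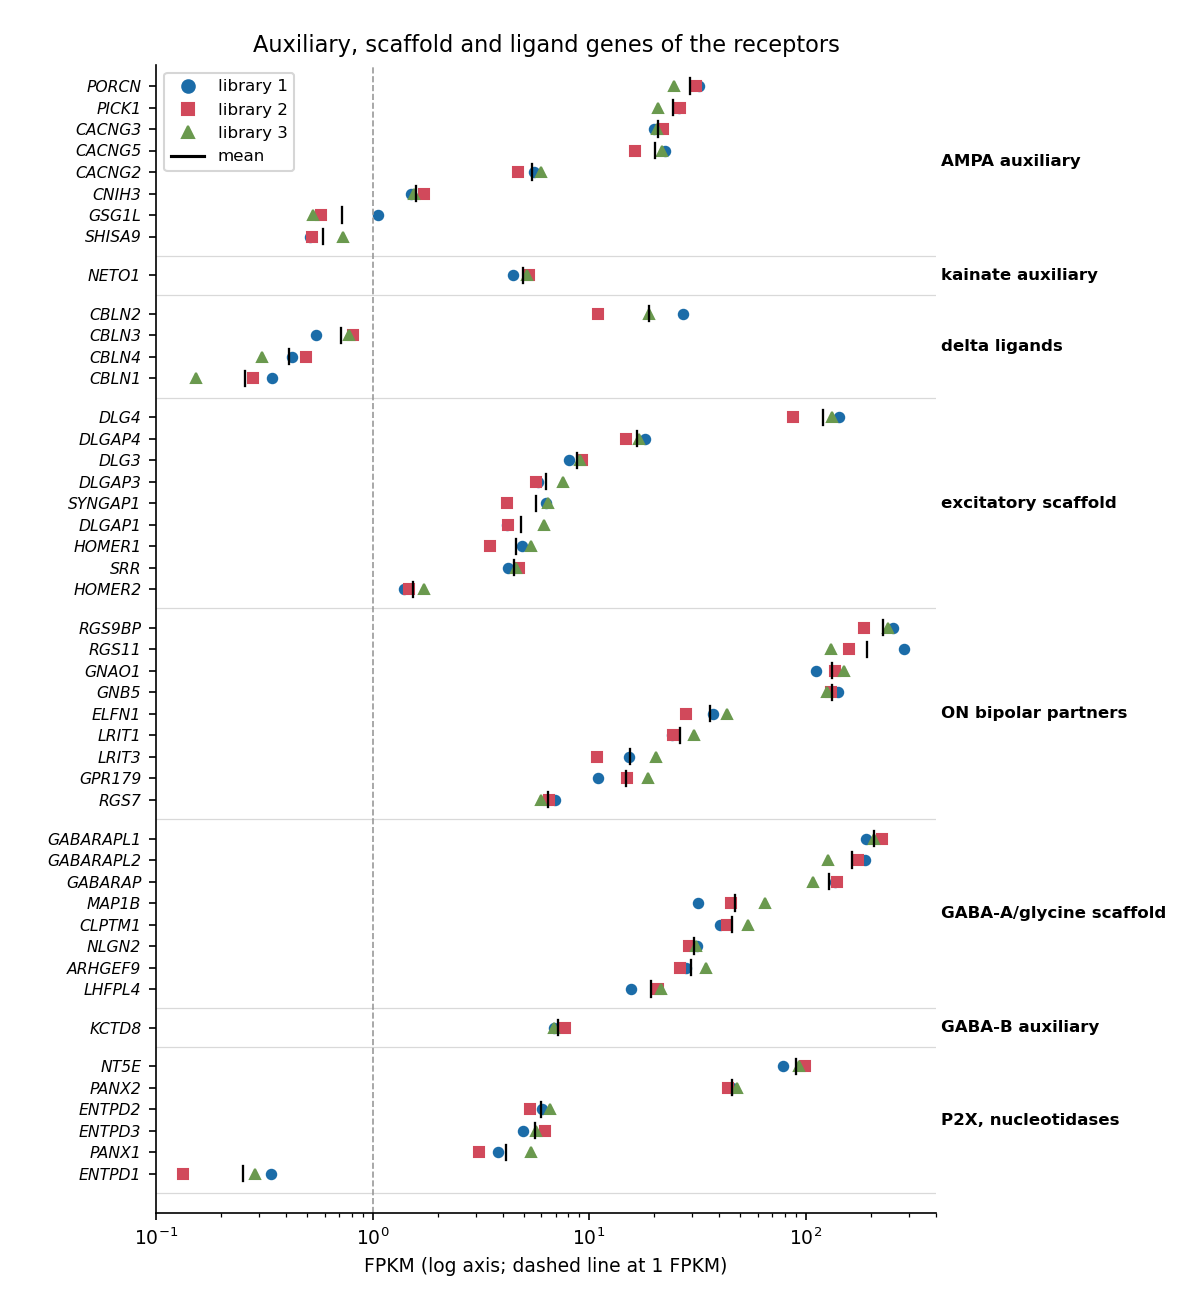
FPKM of the 46 listed auxiliary, scaffold and ligand genes by list, on a log axis, with 1 point per library, a black tick at the mean and a dashed line at 1 FPKM. Most points lie above 1 FPKM; CBLN1, at 0.154 to 0.343 FPKM, is among the lowest and RGS11, at 131 to 286 FPKM, among the highest.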

How the data were processed

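Poly(A) RNA of 3 retina libraries was sequenced; CASAVA 1.8.1, GSNAP and HTSeq are named in the submitters' processing notes, while their settings, the genome build, annotation, strand and handling of multiply matching reads are not stated in the labels. The deposited values are FPKM, made by the authors per gene and library, per the file headers, with a gene length that the authors list beside them. Of the members' lengths 24 of 41 are multiples of 3 (4946 of 13574 over all genes), so some models may lack UTRs; a different model would change a gene's FPKM.

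Reads were recovered because FPKM times length was a whole multiple of 1 step, within a tolerance of 0.1 read, in 100% of values up to 2000 reads. They gave denominators, floors of 3 reads, exact Poisson intervals and exact conditional binomial intervals of ratios (95%). Ratios between neighbouring genes were taken on log2(FPKM + 1), which understates differences of low genes; ratios of sums and those with counting intervals have no pseudocount. Neighbour ratios were tested with a two-sided exact sign-flip test over 3 libraries. With a single group there was nothing to contrast, and count models were not used. The length trend was a running median over 501 genes. Read recovery and trend removal were tested on simulated data. Python 3.11.15, pandas 2.3.3 and SciPy 1.17.1 were used.

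Every member entered the counts, sums and shares, though a few are not reported singly here, and the 3 highest genes of each partner list were named. Members and lists were chosen with earlier results of these data known, and subtypes, gene neighbours and counts by library were added after the values were seen.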

Additional observations from a re-analysis of the deposited data

How the results depend on the processing

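No paired analysis was possible because the 3 libraries form 1 group. Equal sums, the median ratio and removal of the length trend moved the mean of none of the 40 members above 0 by more than the SD between libraries. These scalings raise some libraries and lower others, so a mean over 3 libraries could hardly move, and this says little about normalisation. Counts by library could move: members highest in library 3 went from 18 to 25 with equal sums. Of the 41 members 16 had a mean of at least 5 FPKM, beside 52.2% of all genes. Shares of the summed reads, not scaled to length, were 7.74% for AMPA, 13.0% for kainate, 33.4% for GABA-A, 28.3% for GABA-B, 4.51% for glycine and 5.18% for P2X receptors, so the order of classes depends on length scaling. With only members of at least 1 FPKM the NMDA share was 1.11%. The log2 ratio of GRIK1 to GRIK5 was 0.37 in reads and ran from -0.16 to 0.15 when 1 library was left out; that of GRIA3 to GRIA4 was 1.34 in reads, against 0.11 per length. Without replicate 3 the log2 ratio of GABRR2 to GABRR3 was -0.092, and it reached 0.37 without another library and 0.75 in reads. The count of members with at least a 2-fold gap was 2 with a pseudocount of 0.1 and with equal sums, 0 with a minimum of 5 FPKM, and ran from 0 to 1 when 1 library was left out; it was 0 without replicate 2 and without replicate 3. Members lowest in library 2 numbered 7 with the length trend removed. Causes were not tested where the construction does not show them. Genes with under 10 reads a library (GABRQ, GABRA6, GABRP, P2RX1 and P2RX7) are limited by depth.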
